A study of Mus musculus with 8 samples.

Results

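Fibrinogen and the coagulation factors are plasma proteins made mainly by hepatocytes. Thrombin, cut from prothrombin, turns fibrinogen into fibrin, plasmin dissolves the fibrin, and antithrombin and activated protein C hold the cascade back. Fibrinogen is assembled from 3 chains, encoded by Fga, Fgb and Fgg, and in liver its genes are known to respond to interleukin-6 and glucocorticoid. The 10 genes described here are the fibrinogen chain genes Fga, Fgb and Fgg, the clotting factor genes F2, F5, F7 and F10, the plasminogen gene Plg, and the anticoagulant genes Serpinc1 and Proc. They were chosen by name, out of 23403 genes in the count table, because Fgg was among the genes with the largest rises in the comparison of treated with control RNA described below. Their differences in that comparison are therefore given as a description, and neither a test call nor an interval printed for them is used as support.

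RNA-seq covered 4 libraries of Hepa-1c1c7 (Hepa-1) cells, a mouse hepatoma line: 2 libraries of cells given the hexavalent chromium salt CrK2O4 at 25 µM during 90 minutes, and 2 libraries of cells labelled only as control. The labels do not say to which chromium regimen these controls belong, nor whether the libraries of a group came from separate cultures, so the p-values below measure only the spread between these libraries. FAIRE-seq, which recovers DNA that is free of crosslinked protein, covered 4 libraries, 1 for this acute 25 µM exposure, 1 for chronic exposure to 0.5 µM over 20 passages, and 1 control for each. RNA after the chronic exposure was not analysed here.

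The RNA-seq libraries held between 32319676 and 37696116 counts each. Levels are given as CPM, counts scaled to the TMM-normalized library size, and in comparisons between genes as RPKM, which is CPM per kilobase of annotated exon. A floor of 3 counts corresponded to 0.0767 to 0.104 CPM, so that several of these genes were near the limit of what the libraries could measure. Of 13619 tested genes, 83 were more than 2-fold apart in the control pair and 1404 in the treated pair. Of the hepatocyte markers, Alb had 3607 ± 83.5 CPM (SD, n = 2) in treated and 925.8 ± 30.3 CPM in control cells, whereas Apoa1 had no read in either control.

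Among the fibrinogen genes all 3 chains were higher in both treated libraries than in both controls, and Fgg differed most. Fgg, for the γ chain (GRCm38, chromosome 3 from 83007724 to 83015056), had 8 reads in each control and 224 and 309 reads in the treated libraries. These counts correspond to 0.230 and 0.205 CPM in the controls and 6.62 and 10.7 CPM in the treated libraries. The groups did not overlap, and the treated libraries themselves differed by a factor of 1.61. The difference between the groups was a log2 fold change of 5.29 with a standard error of 0.40, or 39.2-fold, and lay above 99.9% of the tested genes. A lncRNA gene on the opposite strand, Gm30097, overlaps Fgg by 692 bp, and whether the counting used the strand is not given in the sources used here.

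Fgb, for the β chain (chromosome 3 from 83042246 to 83049863), was the chain with the most reads in every library. It had 3.77 and 3.45 CPM in the controls and 18.8 and 20.5 CPM in the treated libraries, from 131, 135, 635 and 595 reads. The treated libraries lay close together, and both were far above the controls. The log2 fold change of Fgb was 2.44 with a standard error of 0.17, which is 5.44-fold.

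Fga, for the α chain (chromosome 3 from 83026153 to 83033627), was per exon length the scarcest chain in every library. Its reads were 5 and 8 in the controls and 29 and 89 in the treated libraries, or 0.144 and 0.205 CPM against 0.857 and 3.07 CPM. Both treated libraries were above both controls, but they differed from each other 3.58-fold, and 1.84% of the tested genes were at least as far apart between the treated libraries. The log2 fold change of Fga was 3.45 with a standard error of 0.81. Without treated library 2 it was 2.26 and without treated library 1 it was 4.11.

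**Figure D1:**
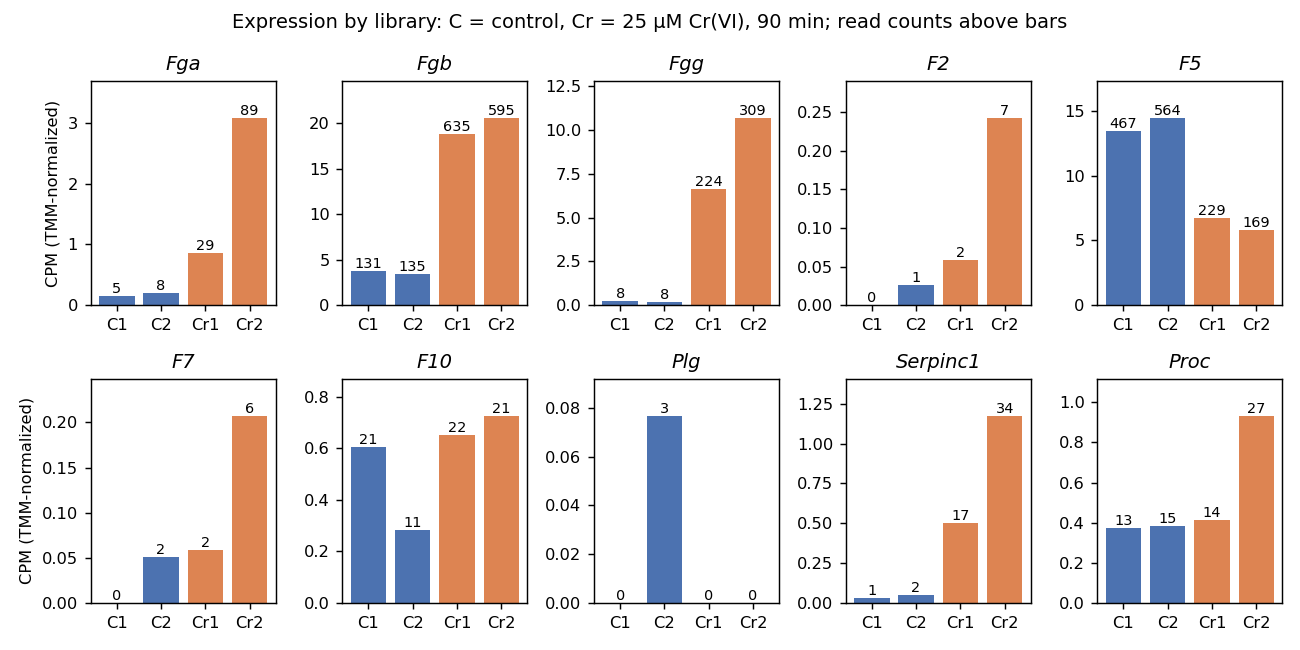
Bars show the TMM-normalized CPM of each gene in the control libraries (C1, C2) and the treated libraries (Cr1, Cr2; 25 µM, 90 minutes), with the read count above each bar and a separate axis per gene. Fga, Fgb, Fgg and Serpinc1 are higher and F5 is lower in both treated libraries, while F2, F7 and Plg have at most 7 reads in any library.

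Measured per exon length, the chains were present in unequal amounts, and the proportions differed between the groups. Fgb made up 93.6% and 92.8% of the summed RPKM of the 3 chains in the controls and 76.5% and 66.9% in the treated libraries. The share of Fgg was 4.61% and 4.44% in the controls and 21.8% and 28.0% in the treated libraries, so that the groups did not overlap. The share of Fga ran from 1.77% to 5.06% and overlapped between the groups, with its highest value in treated library 2. The ratio of Fgb to Fgg in RPKM was 20.3 and 20.9 in the controls and 3.51 and 2.39 in the treated libraries. The summed RPKM of the chains was at most 2.36 in the controls and at least 14.4 in the treated libraries.

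**Figure D2:**
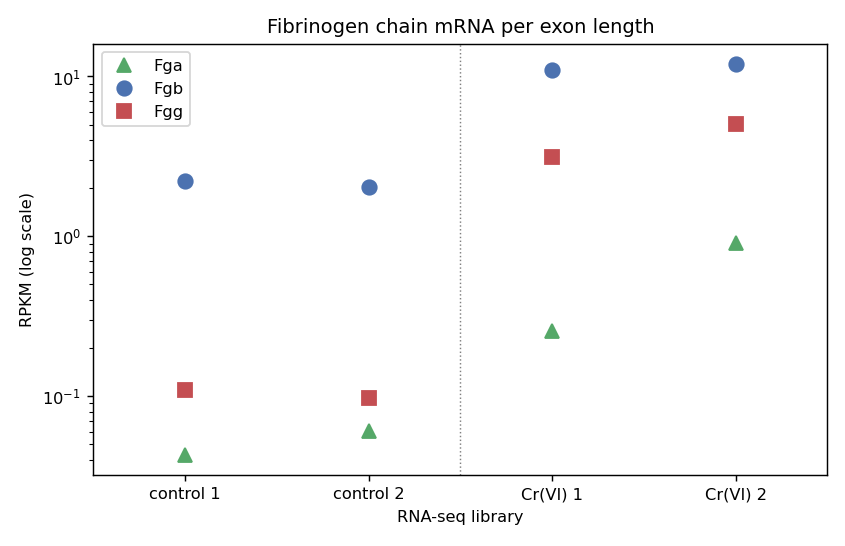
Points show the RPKM of Fga, Fgb and Fgg on a log axis in each of the 4 RNA-seq libraries. Fgb is the highest chain in every library, and Fgg moves from 0.109 and 0.0969 RPKM in the controls to 3.13 and 5.05 RPKM in the treated libraries.

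The fibrinogen genes lie within one stretch of chromosome 3, and of their nearest protein-coding neighbours Plrg1 had reads. Plrg1, a splicing factor gene 5675 bp beyond the cluster, had 61.2 ± 3.84 CPM (SD, n = 2) in control and 67.6 ± 3.28 CPM in treated cells (log2 fold change 0.14, edgeR's quasi-likelihood test, adjusted p = 0.441). On the other side, Lrat, Rbm46 and Npy2r, the 3 nearest protein-coding genes, had no reads in any library. The remaining neighbours beyond Plrg1, Gm10710 and Dchs2, were not analysed here.

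Because the chain genes were higher together, the 250 bases before each start site are given, 5′ to 3′ on the strand of the gene, from RefSeq on GRCm38.p6. Those of F5 follow for contrast, since F5 was lower in treated cells. Capitals mark matches on either strand to TTGCNNAA (C/EBP), CTGGGAA (the core of an interleukin-6 response element), TGANTCA (AP-1) and CAAAGTCCA (HNF4), and no match overlapped another.
Fgg, chr3:83007474-83007723, plus strand: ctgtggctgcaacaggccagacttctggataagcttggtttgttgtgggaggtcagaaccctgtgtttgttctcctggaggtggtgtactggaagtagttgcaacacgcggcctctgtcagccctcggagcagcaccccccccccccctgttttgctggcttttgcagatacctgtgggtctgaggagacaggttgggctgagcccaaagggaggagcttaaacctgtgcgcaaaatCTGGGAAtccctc
Fga, chr3:83025903-83026152, plus strand: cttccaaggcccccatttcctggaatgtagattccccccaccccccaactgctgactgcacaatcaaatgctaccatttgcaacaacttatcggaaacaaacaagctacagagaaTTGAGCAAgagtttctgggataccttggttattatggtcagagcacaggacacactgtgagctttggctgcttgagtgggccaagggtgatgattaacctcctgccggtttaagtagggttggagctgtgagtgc
Fgb, chr3:83049864-83050113, minus strand: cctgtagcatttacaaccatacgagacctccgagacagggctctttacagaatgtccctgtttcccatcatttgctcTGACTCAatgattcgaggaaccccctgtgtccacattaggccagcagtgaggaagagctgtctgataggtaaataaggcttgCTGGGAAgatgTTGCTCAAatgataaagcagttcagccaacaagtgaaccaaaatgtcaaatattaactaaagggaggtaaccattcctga
F5, chr1:164151585-164151834, plus strand: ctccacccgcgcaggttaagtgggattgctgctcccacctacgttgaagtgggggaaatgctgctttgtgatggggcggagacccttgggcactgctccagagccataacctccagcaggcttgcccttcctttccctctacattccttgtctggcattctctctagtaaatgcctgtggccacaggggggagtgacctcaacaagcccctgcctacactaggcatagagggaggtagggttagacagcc

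The Fgb window held matches to 3 of the 4 motifs. Counted in bases before the start site, they were AP-1 at 173 to 167, the interleukin-6 response core at 91 to 85 and C/EBP at 80 to 73. The Fga window held C/EBP at 135 to 128, and the Fgg window held the interleukin-6 response core at 13 to 7. The F5 window held none of the letters searched. The same was true of the windows of F7, F10 and Serpinc1, and Serpinc1 was higher in treated cells, so a window without a match was not particular to F5. Windows were at hand for 8 of the 10 genes, and outside the fibrinogen genes the F2 window held the only other match, to AP-1. Over all 32851 RefSeq windows of this length, 9.56% held C/EBP, 9.10% the interleukin-6 response core, 6.75% AP-1 and 0.384% HNF4. A match describes the letters only and does not show that a factor bound there.

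Of the clotting factor genes, F5 went the other way from fibrinogen. F5, for the cofactor that speeds the activation of prothrombin (chromosome 1 from 164151835 to 164220277), had 13.4 and 14.4 CPM in the controls and 6.77 and 5.83 CPM in the treated libraries, from 467, 564, 229 and 169 reads. Both treated libraries were below both controls, with a small spread in each group. Its log2 fold change was −1.14 with a standard error of 0.18, so that the level in control cells was 2.21 times that in treated cells. In RPKM the levels of F5 and Fgb were close in the controls, with 1.87 ± 0.0944 (SD, n = 2) for F5 and 2.12 ± 0.131 for Fgb, and far apart in treated cells, with 0.847 ± 0.0889 and 11.5 ± 0.733. An antisense lncRNA gene, Gm16548, overlaps F5 by 383 bp.

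F10, for the protease that cuts prothrombin (chromosome 8 from 13037308 to 13056676), hardly separated the groups. It had 21 and 11 reads in the controls and 22 and 21 reads in the treated libraries, or 0.604 and 0.281 CPM against 0.650 and 0.725 CPM. The treated libraries were above the controls by less than the controls differed from each other. The log2 fold change was 0.64 with a standard error of 0.47, and it was 1.26 without control library 1 and 0.17 without control library 2.

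F7 and F2 had too few reads for the fit across genes. F7, for the factor that starts the cascade with tissue factor, had 0 and 2 reads in the controls and 2 and 6 reads in the treated libraries. The ratio of its group totals, treated over control, was 4.70 with a 95% exact counting interval from 0.939 to 45.5. F2, for prothrombin, had 0 and 1 reads in the controls and 2 and 7 reads in the treated libraries, a ratio of 10.6 with an interval from 1.47 to 464. These intervals cover counting error only, and Ckap5, which overlaps F2 by 8283 bp on the opposite strand, leaves the origin of so few reads uncertain.

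F7 and F10 are neighbours on chromosome 8, and Proz, the protein Z gene, follows F10 at a distance of 3908 bp. Proz had 0 and 1 reads in the controls and 5 and 16 reads in the treated libraries, a ratio of 24.7 with a 95% exact counting interval from 3.97 to 1021. The other 5 nearest protein-coding genes, Mcf2l, Atp11a, Tubgcp3, Pcid2 and Cul4a, had levels from 20.1 to 134.2 CPM in control cells and log2 fold changes between −0.064 and 0.092, with adjusted p-values from 0.707 to 0.926 in edgeR's quasi-likelihood test.

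The anticoagulant gene Serpinc1, for antithrombin (chromosome 1 from 160978583 to 161002543), was almost silent in control cells. It had 1 and 2 reads in the controls and 17 and 34 reads in the treated libraries, or 0.502 and 1.17 CPM after treatment. The groups did not overlap, and the ratio of the group totals was 20.0 with a 95% exact counting interval from 6.47 to 100.1. This interval too covers counting error only, and the treated libraries differed 2.34-fold in CPM. The fitted log2 fold change of 4.24 (standard error 0.75) depends on the prior count, and without treated library 2 it was 3.52.

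Proc, for protein C, had 13 and 15 reads in the controls and 14 and 27 reads in the treated libraries. The corresponding levels were 0.374 and 0.384 CPM against 0.414 and 0.932 CPM. Treated library 1 lay just above the controls, and treated library 2 carried most of the difference: the log2 fold change of 0.81 (standard error 0.50) became 0.12 without it. Plg, for plasminogen, had 0 and 3 reads in the controls and 0 reads in both treated libraries. This is at the floor in both groups, so that no fold change is given and a difference was not detectable at this depth.

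Of the 10 genes, 7 passed the filter on low counts, and Fga, Fgg and Serpinc1 passed it only through the treated libraries. Fgb and Fgg were among the 243 genes that edgeR's quasi-likelihood test called higher (1.78% of the tested genes), and F5 was among the 388 called lower (2.85%). Both treated libraries were above both controls for 6 of the 7 genes, as for 32.2% of all tested genes, and below them for 1, as for 34.1%. The groups thus did not overlap for any of the 7, as for 66.3% of the tested genes. Since the genes were chosen with this contrast known, nothing is read from these counts. The median log2 fold change of the 7 genes was 2.44, the value of Fgb, and that of all tested genes was −0.0047. The choice of the genes and the filter favoured a high median, so it too is only a description.

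**Figure D3:**
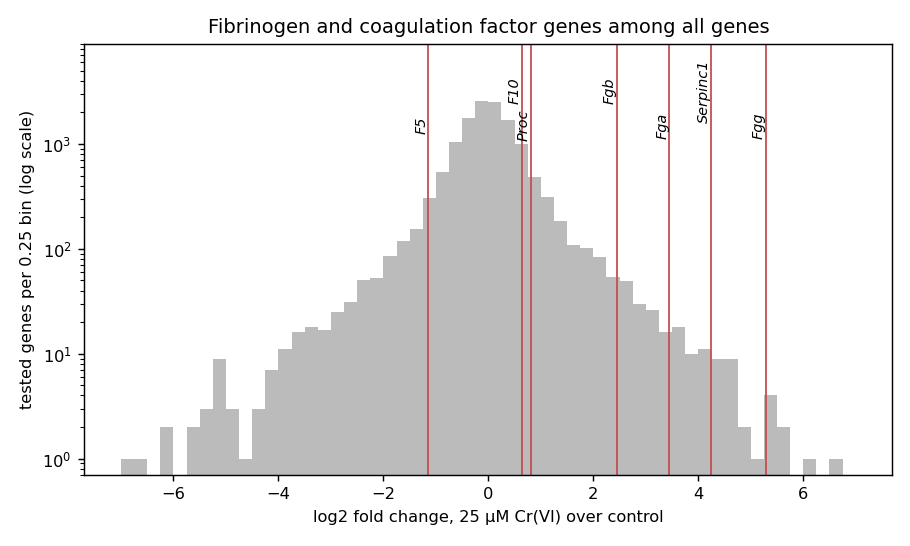
Grey bars count the 13619 tested genes by their log2 fold change, treated over control, in bins of 0.25 on a log axis, and red lines mark the 7 genes that passed the filter. Fgg (5.29), Serpinc1 (4.24), Fga (3.45) and Fgb (2.44) lie in the right tail, Proc (0.81) and F10 (0.64) between the tail and the centre, and F5 (−1.14) on the left.

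**Figure D4:**
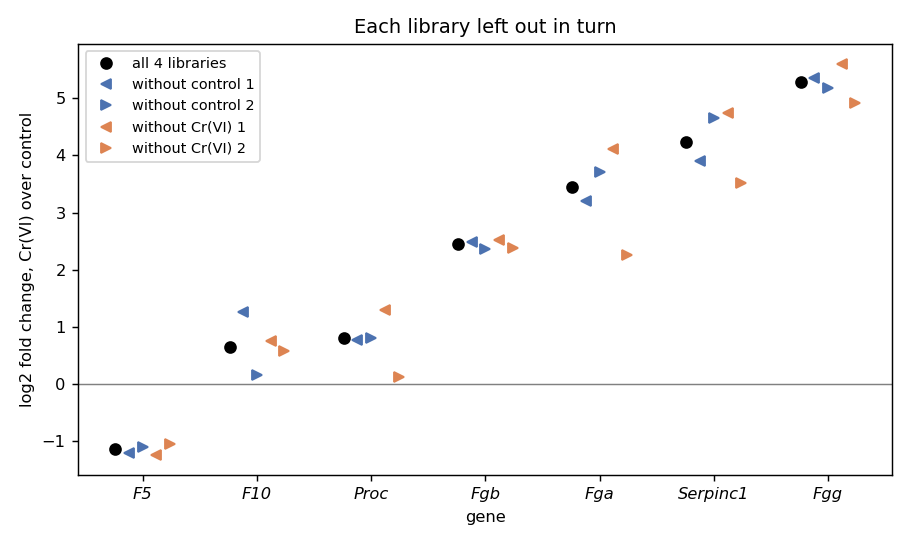
Points show the log2 fold change of each of the 7 genes with all 4 libraries and with each library left out in turn. Fgb stays between 2.36 and 2.52 and F5 between −1.25 and −1.04, whereas Fga ranges from 2.26 to 4.11 and Proc from 0.12 to 1.30.

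Of the other genes of the coagulation and fibrinolysis pathway, F3 was called. The list of 39 genes held clotting factors, anticoagulants, fibrinolysis genes, vitamin K cycle genes, export receptors and thrombin receptors. Of these, 23 were tested, 1 was called higher and 0 lower at an adjusted p under 0.05 in edgeR's quasi-likelihood test, against 4.63% of all tested genes called in either direction. Of the 23 genes, 7 had an unadjusted p under 0.05, and DESeq2 called 5, where it called 15.2% of all tested genes. The share of all tested genes under that unadjusted p is not given here. It was large, since in edgeR's quasi-likelihood test an unadjusted p of 0.0467 (Trf, a hepatocyte marker) went with an adjusted p of 0.157. Nothing is therefore read from this count or from later counts of unadjusted p-values. The median log2 fold change of the 23 genes was 0.21. Of the 16 genes under the filter, 5 had no read in any library, among them F9, for clotting factor IX.

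The gene called was F3, for tissue factor, the membrane protein that starts coagulation with factor VII. It rose from 4.91 ± 0.0713 CPM (SD, n = 2) in control to 13.7 ± 0.614 CPM in treated cells. The log2 fold change was 1.48 with a standard error of 0.17 (edgeR's quasi-likelihood test, adjusted p = 0.0326). In that test its adjusted p was 0.0537 when only library size was used for scaling, and from DESeq2 it was 5.54e-06. With either control library left out, F3 was not called. A fit with 1 library in a group takes its spread from the other group alone, so p-values from such fits are not given. Over all 9 alternatives the log2 fold change of F3 ran from 1.37 to 1.52.

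Among anticoagulants, Tfpi, for the inhibitor of tissue factor, had 74.6 ± 3.49 CPM (SD, n = 2) in control and 44.8 ± 5.63 CPM in treated cells. The log2 fold change of −0.74 (standard error 0.14) missed the threshold with an adjusted p of 0.0613 in edgeR's quasi-likelihood test. It passed with 0.0484 when only library size was used and with 0.0144 from DESeq2, and did not pass with either control library left out. Over the alternatives the log2 fold change of Tfpi ran from −0.87 to −0.60. Pros1, for protein S, the cofactor of protein C, had 148.0 ± 0.751 CPM in control and 193.6 ± 17.6 CPM in treated cells (log2 fold change 0.39, edgeR's quasi-likelihood test, adjusted p = 0.126). Serpind1, for heparin cofactor II and named after its values were seen, had counts near those of Serpinc1, with 1 and 2 reads in the controls and 17 and 36 reads in the treated libraries. Its adjusted p was 0.0586 in edgeR's quasi-likelihood test and 0.0079 from DESeq2. Over the alternatives its log2 fold change ran from 3.52 to 4.83.

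In fibrinolysis, Plat, for tissue plasminogen activator, had 63.0 ± 1.34 CPM (SD, n = 2) in control and 62.7 ± 1.46 CPM in treated cells. Its log2 fold change was −0.0062 with a standard error of 0.10 (edgeR's quasi-likelihood test, adjusted p = 0.974). Plau, for urokinase, had 0 and 3 reads in the controls and 2 and 14 reads in the treated libraries.

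The vitamin K cycle, which supplies the modified glutamate residues that clotting factors need, held 0 called genes among its 3 members, with 0 at an unadjusted p under 0.05 and 0 called by DESeq2. Ggcx, for the carboxylase, had a log2 fold change of −0.37 (standard error 0.14), and Vkorc1, for the reductase, had 0.29 (standard error 0.29), with adjusted p-values of 0.175 and 0.528 from edgeR's quasi-likelihood test. Vwf, for von Willebrand factor, which endothelium and megakaryocytes make, had 0.336 ± 0.0679 CPM (SD, n = 2) in control and 0.384 ± 0.251 CPM in treated cells.

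**Figure D5:**
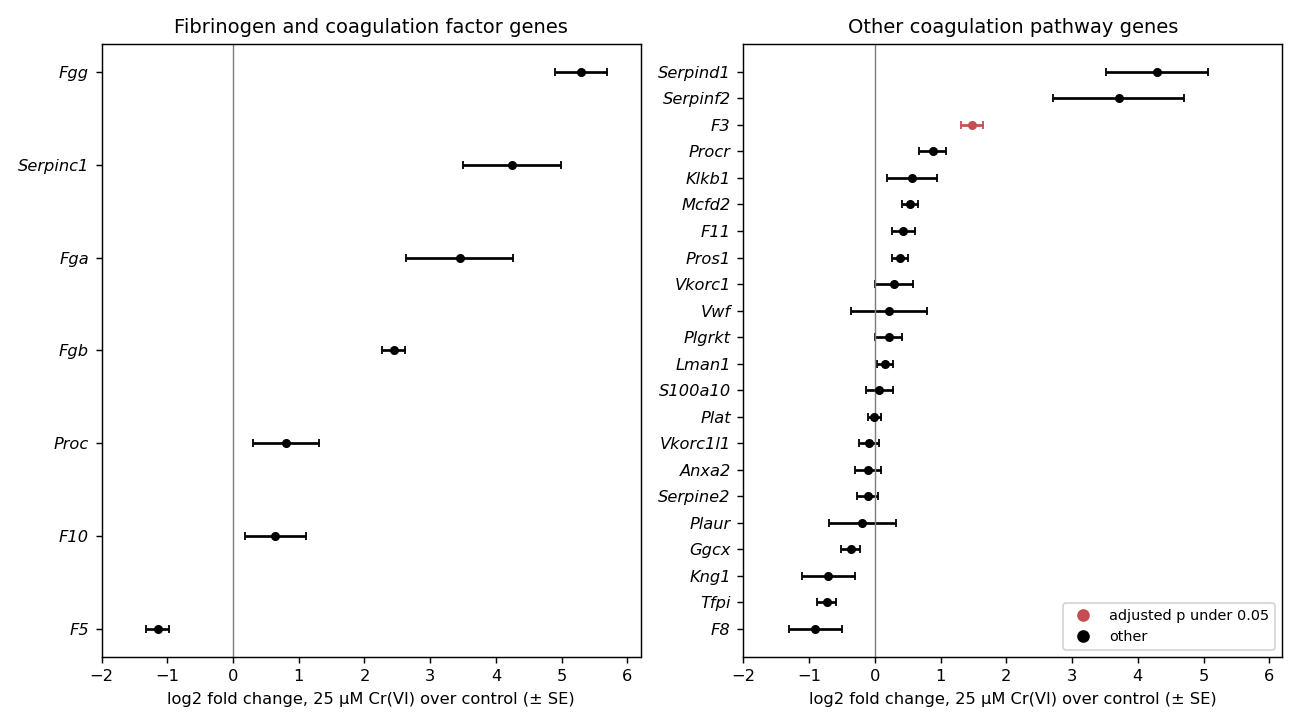
Points show the log2 fold change, 25 µM Cr(VI) over control, with its standard error, for the 7 fibrinogen and coagulation factor genes that passed the filter (left) and 22 of the 23 other pathway genes tested (right). On the right only F3 (red, 1.48) passed an adjusted p of 0.05, and Serpind1 (4.30) and Serpinf2 (3.71), both scarce in control cells and named after their values were seen, have wide errors.

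Known regulators of fibrinogen transcription in liver were examined beside the chain genes. Of 11 genes, 9 were tested, and 1 was called higher and 0 lower by edgeR's quasi-likelihood test, against 4.63% of all tested genes called in either direction. Of the 9 genes, 4 had an unadjusted p under 0.05, Socs3 and Hnf4a higher and Cebpd and Il6ra lower in treated cells. DESeq2 called 2 of the 9, Socs3 and Cebpd, against 15.2% of all tested genes. Socs3, a feedback inhibitor that interleukin-6 signalling induces, rose from 36.0 ± 1.40 CPM (SD, n = 2) to 84.3 ± 14.9 CPM, a log2 fold change of 1.23 ± 0.16 (SE) with an adjusted p of 0.0393 in that test. This call was lost with either control library left out, where the spread came from the treated pair alone. With only library size for scaling it was kept (adjusted p = 0.0405 in edgeR's quasi-likelihood test). Over the alternatives the log2 fold change of Socs3 ran from 1.03 to 1.41. Stat3, Il6st, Nr3c1 and Cebpb had log2 fold changes between −0.067 and 0.13. Cebpd had 15.1 ± 0.110 CPM in control and 7.13 ± 0.863 CPM in treated cells, with an adjusted p of 0.0510 in edgeR's quasi-likelihood test and 0.0021 from DESeq2. Over the alternatives its log2 fold change ran from −1.20 to −0.96. Il6ra had a log2 fold change of −0.45 (edgeR's quasi-likelihood test, adjusted p = 0.148). Hnf4a had 8 and 10 reads in the controls and 15 in each treated library, and Cebpa had none in any library.

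Markers of hepatocytes and of other cells that make or carry clotting proteins were compared over whole lists. The summed level of 8 hepatocyte markers was 2149 and 2211 CPM in the controls and 5233 and 5807 CPM in the treated libraries. Alb carried most of this rise, with 904.4 and 947.2 CPM in the controls and 3666 and 3547 CPM in the treated libraries. Of the 6 tested, 2, Alb and Ttr, were called higher by edgeR's quasi-likelihood test, against 1.78% of all tested genes. Of these 6 markers, 5 had an unadjusted p under 0.05 and DESeq2 called 4, against 15.2% of all tested genes. Afp, for alpha-fetoprotein, had a log2 fold change of 0.034. The 5 megakaryocyte markers summed to 5.09 and 5.47 CPM in the controls and 13.1 and 29.5 CPM in the treated libraries, and edgeR's quasi-likelihood test called 0 of the 4 tested, of which 4 had an unadjusted p under 0.05 and DESeq2 called 2, Itga2b and Ppbp. The 5 endothelial markers summed to 0.920 and 1.07 CPM against 2.48 and 2.59 CPM. Pecam1 carried this rise, with a mean of 0.487 CPM in control and 2.01 CPM in treated cells. Of the 2 tested, Pecam1 was called higher, against 1.78% of all tested genes, and Vwf overlapped between the groups. Kdr also overlapped, with a mean of 0.174 CPM in control and 0.126 CPM in treated cells. Tek had 1 read, in treated library 2, and Cdh5 had none in any library. The 5 macrophage markers summed to 58.0 and 57.9 CPM against 42.2 and 60.1 CPM, and the 4 erythroid markers to 3.11 and 3.35 CPM against 4.49 and 8.42 CPM, with 0 called in either list, 1 in each at an unadjusted p under 0.05 and 0 called by DESeq2. The macrophage sum hides unlike genes. Csf1r had 50.1 and 49.6 CPM in the controls and 37.0 and 37.9 CPM in the treated libraries, and 34.1% of all tested genes were likewise lower in both. Cd68 had 7.76 and 8.28 CPM in the controls, and 5.08 and 22.0 CPM in the treated libraries. The 5 stellate cell markers summed to 694.5 and 705.4 CPM against 1285 and 1414 CPM, with 1 of 4 tested called higher, Dcn, which had 439.1 ± 4.83 CPM (SD, n = 2) in control and 978.0 ± 27.1 CPM in treated cells. The part of these differences in the levels of the fibrinogen and coagulation genes was not tested. In bulk RNA, fewer cells with a transcript and less of it per cell cannot be told apart.

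The genes with the profile most like that of Fgg were Tnr, Alpl, Apob, 4930523C07Rik and Padi3. Likeness was the Euclidean distance between centred log2 CPM values over the 4 libraries, among 12079 genes with a mean of at least 1 CPM. The distances ran from 0.953 for Tnr to 1.29 for Padi3. Fga and Fgb were farther from Fgg, at 2.23 and 2.55, and Serpinc1 was at 1.91. With 4 libraries in 2 groups, this likeness mainly describes the size of the difference between the groups.

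FAIRE peaks are a measure that did not enter the choice of the genes. The 25 µM list of opened regions held 2945 peaks, and 1 of the 10 genes, Serpinc1, had a peak within 10000 bp of its gene body, against 9.24% of 23281 genes of the count table. This peak, on chromosome 1 from 161005635 to 161005747, lay 3092 bp beyond the end of Serpinc1, in an exon of its neighbour Zbtb37, with a MACS score of 58.7 where the lowest in the list was 50. With a minimum score of 60, a peak lay within 10000 bp of 0 of the 10 genes, against 3.53% of all genes. Within 50000 bp the number was again 1 of 10, against 20.9%, and within 100000 bp it was 3 of 10 (F2, Serpinc1 and Proc), against 32.2%. No gene of the 10 had the centre of a 25 µM peak within 1000 bp of a start site, which 1.05% of all genes had. For the fibrinogen genes the nearest 25 µM peak was 510 to 545 kb away, with 75.0% to 76.7% of all genes at least as near to one, and for F5 it was 537 kb away. The median distance over all genes was 204 kb.

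After the chronic exposure to 0.5 µM, the list of opened regions held 860 peaks, and 1 of the 10 genes, Proc, had a peak within 10000 bp, against 2.97% of all genes. This peak was 316 bp wide, lay in an intron of Proc 5358 bp after its outermost start site, and had a score of 61.7. Proc also had the only such peak among the 10 genes within 50000 bp (6.34% of all genes), within 100000 bp (10.7%) and with a minimum score of 60 (1.22%), and none of the 10 had a peak centre within 1000 bp of a start site (0.851%). The nearest 0.5 µM peak was the same for all 3 fibrinogen genes and lay 224 to 259 kb away, with 19.8% to 22.0% of all genes at least as near to one. The median over all genes was 843 kb. Each list rests on 1 treated and 1 control library, so these counts have no replicate check. Both lists held slightly fewer regions than the study counted, so that a gene without a peak here may lie near a region not analysed here.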

How the data were processed

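RNA-seq read counts per Entrez gene were deposited without normalization, and the authors made them by aligning reads to mm10 with TopHat. The counting tool, its annotation and its use of strand are not given in the sources used here. The deposited peak score was made by the authors with MACS after BWA alignment, for 1 treated against 1 control library. From its minimum of 50 it was taken to be 10 times the −log10 of a p-value. The depth behind peaks is unknown. The 10 genes and all lists were chosen with earlier results of these data known.

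Identifiers were matched to RefSeq GRCm38.p6, the same build as mm10, for 23305 of 23403 genes. Exon lengths are unions of RefSeq exons. Genes passing filterByExpr (minimum count 10) were tested with the quasi-likelihood test of edgeR 4.0.16 (R 4.3.3, TMM factors 0.897 to 1.04, no block, two-sided, Benjamini-Hochberg adjustment over 13619 genes, threshold 0.05), with DESeq2 1.42.0 as an alternative. The fit was tested on simulated data. Standard errors of edgeR log2 fold changes were back-calculated, as the absolute log2 fold change divided by the square root of the F statistic of its test. For the 10 genes they thus restate that test. Log2 CPM used a prior count of 2, and ratios of group totals used exact binomial intervals. The genes named are the 10 genes, pathway genes called and 10 others fixed by name, 11 regulators, the 3 nearest protein-coding genes on each side of the fibrinogen cluster and of F7 and F10, and the 5 genes most like Fgg. Cell type markers are named from their lists, and others with a remark that their values were seen first. Alternatives were the replicate block, library size only, upper-quartile normalization, no filter, each library left out, and other distances or scores for peaks. Python 3.11.15 was used with pandas 2.3.3, numpy 2.4.6, scipy 1.17.1 and matplotlib 3.10.9. Results for 3 genes of these lists are not reported here, although the counts over the lists include them.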

Additional observations from a re-analysis of the deposited data

How the results depend on the processing

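Of 63 log2 fold changes of single genes among the 10, recomputed for the 7 genes tested under 9 alternatives, none changed sign, 57 moved by less than the spread between replicates and 6 by more. For left-out libraries this outcome was largely fixed in advance. With 2 libraries per group, leaving 1 out moves a group mean by no more than about that spread. The groups of the 7 genes did not overlap, so a sign could hardly reverse. These counts are therefore not used as support. The median over the 7 genes, likewise only a description, stayed between 2.26 and 2.52. The number of genes called over the whole table was 631 and depended on the tool and on each library: 2073 with DESeq2 (51.0% of them higher, against 38.5% in the main test), 2969 with the replicate block, and 287 to 10995 with a library left out. With a single treated library the spread is estimated from the controls alone, and the lone library is assumed to vary like them. The number of called pathway genes was 1, and 5 with DESeq2, 6 with the replicate block, 2 without a filter on low counts, and 0 to 20 with a library left out, 0 without control library 1 or control library 2. Using library size only shifted the median of all genes to −0.11, called 30.9% of its genes higher and called Tfpi lower in place of F3. The labels do not say whether same-numbered libraries were handled together. Deviations of same-numbered libraries correlated at 0.0909 over 13619 genes. The controls gave this check little to work with, since their median absolute log2 difference was 0.0584, against 0.377 in the treated pair. The replicate block left the median of the 7 genes at 2.44, but in a balanced layout a block hardly moves fold changes, paired or not. Neither value decides whether the libraries were paired. The controls differed by more than sampling noise, with a mean chi-square of 2.15 per gene against 123 between the treated libraries, and were counted as separate libraries. This chi-square scaled by total counts without TMM, so that differences in composition enter it. The TMM factors were 1.04 in both controls, 1.03 in treated library 1 and 0.897 in treated library 2. Of the 10 genes, those with a 25 µM peak numbered 1 within 10000 bp, 3 within 100000 bp (F2, Serpinc1 and Proc, against 32.2% of all genes), 0 with the peak centre within 1000 bp of a start site and 0 with a score of at least 60. For the 0.5 µM list the number was 1, and 0 within 1000 bp of a start site. Low counts limit F2, F7, Plg, Serpinc1 and Proc.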
